A study of Mus musculus with 2 samples.

Results

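The manchette is a transient sleeve of microtubules that surrounds the spermatid nucleus while the sperm head takes shape, carries cargo toward the growing tail, and is dismantled before the surplus cytoplasm is shed. The 7 genes of these processes described here were chosen by symbol: Spem1, Hook1, Rimbp3, Meig1, Lrguk, Iqcg and Clip1. All 7 of 7 were in the table, out of 23234 genes in all. Hook1 is the gene mutated in the azh mouse, whose manchette and sperm heads are abnormal, and Rimbp3 encodes a manchette protein that binds Hook1. Clip1 encodes CLIP-170, which tracks growing microtubule ends. Lrguk, Meig1 and Iqcg are needed for sperm tails, and mice without Spem1 keep cytoplasm around a bent-back sperm head.

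RNA-seq was performed on total RNA of round spermatids, the haploid cells that precede elongation, from C57BL/6 mice. There was 1 library from wild-type mice and 1 from mice deficient for Epc1 and Epc2, which encode subunits of the TIP60 histone acetyltransferase complex; the latter is called the Epc-dKO-labelled library, and where 2 values are given for a gene the wild-type one comes first. The labels used here give no age, number of animals or method by which the deficiency was made. Values are FPKM, fragments per kilobase of transcript scaled to the mapped reads of the library, so levels of different genes are compared per length. Since each genotype has 1 library, differences carry no replicate error and no test was made, and the read depth is unknown.

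Differences are log2 ratios of FPKM + 1, the Epc-dKO-labelled library over wild type; adding 1 shrinks the change of weakly expressed genes. The words rose and fell are kept for genes past 2-fold on this scale. Expressed means averaging at least 1 FPKM over both libraries, which held for 10438 genes. Epc1 itself had 11.4 FPKM in wild type and 13.6 FPKM in the Epc-dKO-labelled library, and Epc2 had 7.12 and 10.5. Neither was lower in the Epc-dKO-labelled library. A gene-level value includes exons outside a deleted part and does not check the genotype label, so each direction below is that of the labelled library.

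All 7 genes were expressed in both libraries, and 1 of them, Spem1, rose. It had 8.02 FPKM in wild type and 28.7 FPKM in the Epc-dKO-labelled library, a plain ratio of 3.57 and a log2 ratio of 1.72. The other 6 lay within 2-fold, and 0 fell. Of all expressed genes, 2.75% rose and 1.88% fell. Which direction was the more frequent depended on the weight of the pseudocount. Higher genes were 59.4% of those past 2-fold, but 39.9% with a pseudocount of 0.1. The TPM scale brings each library to a larger common sum, so the added 1 and the minimum of 1 weigh less. On that scale 34.1% were higher. With FPKM rescaled by the median ratio, the upper quartile or the sum without the 100 highest genes, the shares were 64.5%, 64.0% and 56.6%. The median log2 ratio of the 7 genes was 0.16, beside -0.05 for all expressed genes, whose quartiles were -0.34 and 0.24. Spem1 stood at the percentile of 99.1 of the log2 ratios of expressed genes, whereas the other members ranged from Rimbp3 at the percentile of 18.4 to Lrguk at 89.8. Of the 7 ratios, 5 were above 0 and 2 below it.

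**Figure D1:**
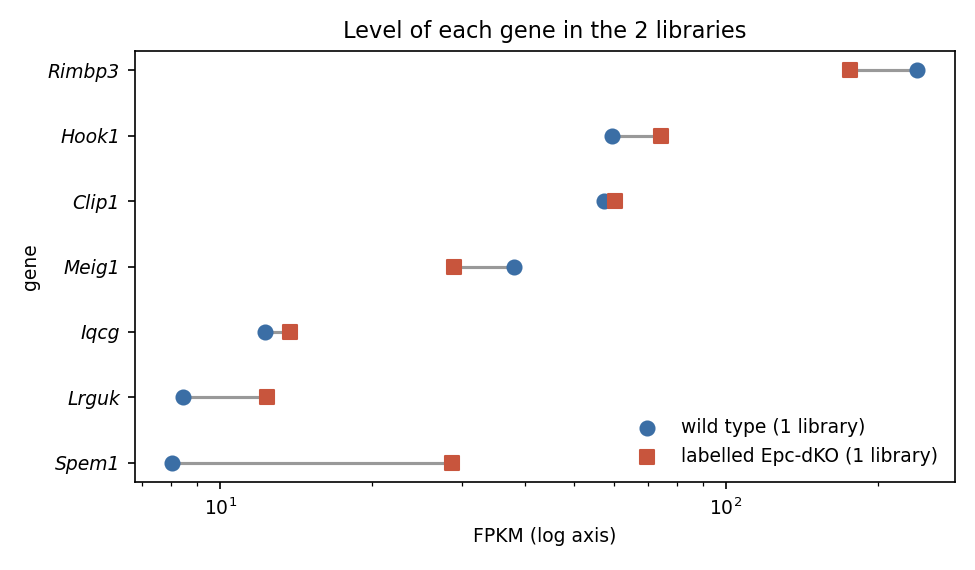
FPKM (log axis) of the 7 genes in the wild-type library (circles) and the Epc-dKO-labelled library (squares), 1 library each, ordered by wild-type level. Spem1 has the widest gap, from 8.02 to 28.7, and Rimbp3 is the highest in both.

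**Figure D2:**
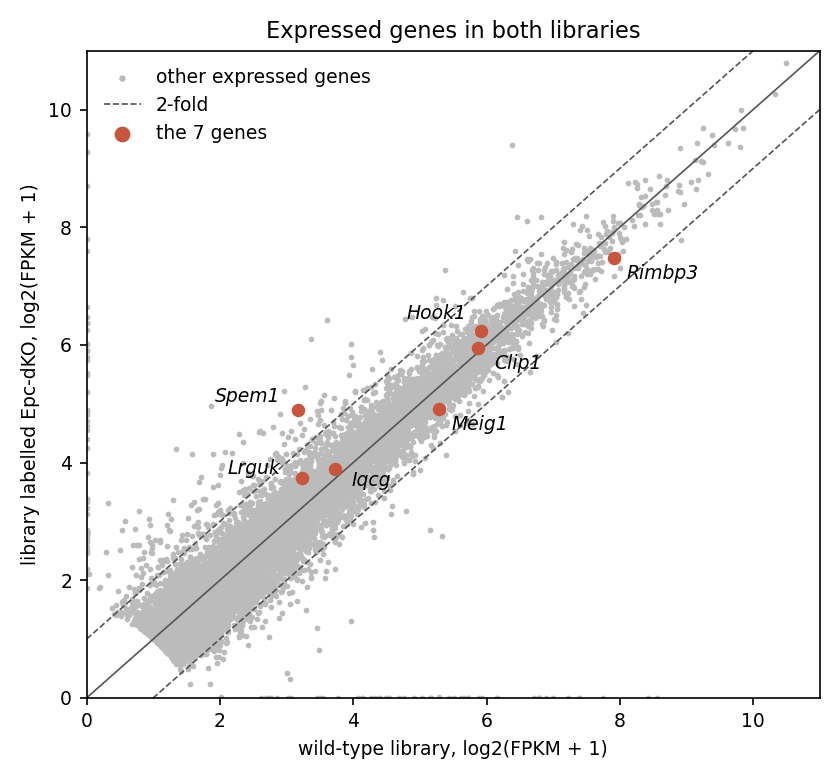
Expressed genes by log2(FPKM + 1) in the wild-type library (horizontal) and in the Epc-dKO-labelled library (vertical), with the diagonal and dashed 2-fold lines; the 7 genes are labelled. Spem1 alone among the 7 lies outside the 2-fold lines.

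The sequences just before Spem1 and its neighbour are shown because these adjacent genes both rose. The gene beside Spem1 on chromosome 11 is listed as 4933402P03Rik, which RefSeq names Spem2, a gene of the same family. It had 14.3 FPKM in wild type and 44.1 FPKM in the Epc-dKO-labelled library, a log2 ratio of 1.56. The windows run from 250 bases before to 50 bases after the RefSeq start, in build GRCm38.p6. That of Spem1 is chr11:69822116-69822415 and that of Spem2 is chr11:69818414-69818713, both on the minus strand. Capitals mark the longest ungapped stretch that the 2 windows share with at most 1 mismatch, without a run of 5 or more of 1 base; the search was chosen after the sequences were seen.

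Spem1: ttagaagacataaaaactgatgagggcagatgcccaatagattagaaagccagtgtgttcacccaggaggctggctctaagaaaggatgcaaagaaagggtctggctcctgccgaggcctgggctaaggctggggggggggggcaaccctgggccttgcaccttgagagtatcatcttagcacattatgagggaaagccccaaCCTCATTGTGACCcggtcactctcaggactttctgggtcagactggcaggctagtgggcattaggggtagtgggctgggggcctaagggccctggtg

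Spem2: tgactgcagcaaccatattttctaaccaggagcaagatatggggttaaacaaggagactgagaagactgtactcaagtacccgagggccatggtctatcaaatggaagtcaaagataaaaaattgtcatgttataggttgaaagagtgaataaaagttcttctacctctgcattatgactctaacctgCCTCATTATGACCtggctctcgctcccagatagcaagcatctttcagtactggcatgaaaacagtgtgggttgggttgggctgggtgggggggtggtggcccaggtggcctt

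The shared stretch reads CCTCATTNTGACC, 13 letters long with N at the mismatch. It begins 47 bases before the start of Spem1 and 62 bases before that of Spem2. Searched on both strands, it was in 5 of 32817 promoter windows of the same length, or 0.0152%. The windows of Spem1 and Spem2 are among these because the stretch was defined from them, and a string of this length is rare in any case. The other genes with it were Lysmd4 and 1700112J16Rik. Adjacent members of a family can share sequence by descent, and the match is a description of letters and not of a binding site.

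Besides Spem2, no measured gene within 3 places of Spem1 passed 2-fold. On the other side lay Nlgn2, which encodes a synaptic adhesion protein, with 2.15 FPKM in wild type and 1.51 FPKM in the Epc-dKO-labelled library. Tmem102, G630025P09Rik, 1810027O10Rik and Plscr3 were not expressed; Tmem102 was listed at 0 in both libraries. Among the 3 measured genes on each side of each of the other 6 members, none passed 2-fold. Spem1 has 1 annotated transcript in GENCODE M21, of 1041 nt in 3 exons, 930 nt of it coding. Among genes averaging at least 5 FPKM, 4.70% of the 724 with a longest transcript of 1500 nt or less rose, against 2.13% of the 3940 with a longer one. The other 664 genes, small RNA symbols or symbols without a GENCODE M21 entry, were in neither class, and 7.23% of them rose. Of the 558 among them without a GENCODE M21 entry, 2.87% rose. These length classes were chosen after the values were seen.

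**Figure D3:**
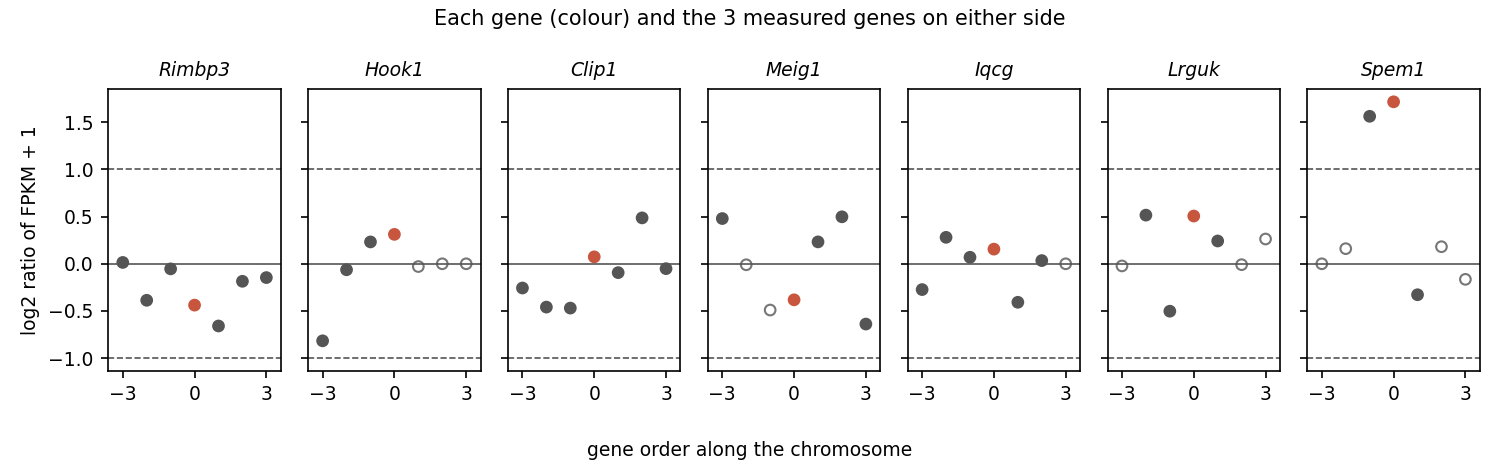
Log2 ratio (vertical) of each of the 7 genes (coloured point, order 0) and of the 3 measured genes on each side in chromosomal order (horizontal); open circles are genes that were not expressed and dashed lines mark 2-fold. Beside Spem1 the neighbour at -1, Spem2, stands at 1.56, and no other neighbour of any member lies outside the 2-fold lines.

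Part of a list of later spermatid transcripts rose alongside Spem1. Of 18 transcripts known to be abundant in late spermatids, all expressed, 9 rose, 9 stayed within 2-fold and 0 fell. Ratios were above 0 for 15 and below it for 3, and the median log2 ratio was 0.91. Over all expressed genes 2.75% rose and 1.88% fell. The list was put together with results of these libraries known, so its direction is not independent evidence. Prm2, which encodes protamine 2 of sperm chromatin, had 82.8 FPKM in wild type and 675 FPKM in the Epc-dKO-labelled library. Akap4, the scaffold gene of the fibrous sheath, had 85.0 and 193. The others that rose were Prm1, the transition protein genes Tnp1 and Tnp2, Tssk6, Txndc2, Spata3 and Spata18. Odf1, for an outer dense fibre protein, had 180 and 290 and stayed within 2-fold, as did Hils1, a spermatid linker histone gene, with a log2 ratio of -0.52. The summed FPKM of the list was 1026 in wild type and 2423 in the Epc-dKO-labelled library. In RNA from pooled cells, fewer cells of a type and less RNA per cell cannot be told apart, and the part of cell stage in the value of Spem1 was not tested.

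Markers of round spermatids, the labelled cell type, were all expressed and summed to nearly the same level in both libraries. For the 16 markers the summed FPKM was 792.4 in wild type and 792.3 in the Epc-dKO-labelled library, and their median log2 ratio was 0.01. A single marker fell, Tex101 (12.4 and 5.69 FPKM), which was also on the spermatocyte list. The share that fell among all expressed genes, for this list and those below, was 1.88%. Acrosome genes of the list differed among themselves within 2-fold, with ratios from Spaca4 (27.6 and 15.4) to Izumo1 (31.5 and 39.9). Between them lay Spaca3 (12.1 and 7.41), Spaca1 (81.7 and 60.7), Acrv1 (60.8 and 62.7) and Acr, for acrosin (117 and 131). Markers of spermatogonia and somatic cells had lower sums. Spermatogonial markers, 9 of 12 expressed, had a summed FPKM of 38.8 in wild type and 18.1 in the Epc-dKO-labelled library, with 2 that fell, Dmrt1 and Crabp1. Spermatocyte markers, 10 of 12 expressed, summed to 232 and 224, of which Spata16 made up 151 and 149.8. Sertoli cell markers, 2 of the 11 found expressed, summed to 13.1 and 8.47, and Leydig cell markers, 8 of 9 expressed, to 41.8 and 28.1, with Insl3 and Ptgds that fell; without these 2 the other 7 summed to 17.6 and 18.3. Peritubular and stromal markers, 4 of 10 expressed, summed to 16.3 and 8.18. Endothelial, blood and immune markers, 1 of 10 expressed, summed to 6.16 and 4.34, with the haemoglobin genes Hbb-b1 and Hba-a1 listed at 0 in both libraries. No other marker was listed at 0. The part of these cells in the members' values was not tested.

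The genes most like Spem1 in these 2 libraries were Mical3, Cdrt4, Wdr38, Lipe and Dnajb8. Likeness is the Euclidean distance between log2(FPKM + 1) values over the 2 libraries, among expressed genes without small RNA or predicted symbols. Mical3, for a flavoprotein that acts on actin, was nearest, at a distance of 0.23, with 8.23 FPKM in wild type and 24.4 FPKM in the Epc-dKO-labelled library. Dnajb8, a testis chaperone gene, was the fifth, at 0.35, with 10.4 and 31.2. The lowest log2 ratio of the 5 was 1.33, in Wdr38, and all were below that of Spem1.

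Rimbp3 and Hook1, whose proteins bind each other on the manchette, were the highest of the 7, with log2 ratios of opposite sign, each within 2-fold. Rimbp3 had 239 FPKM in wild type and 176 FPKM in the Epc-dKO-labelled library, a log2 ratio of -0.44. It ranked 70 among expressed genes in the former and 131 in the latter. Hook1 had 59.6 and 74.2, a log2 ratio of 0.31. Rimbp3 stood 4.01-fold above Hook1 per length in wild type and 2.37-fold above it in the Epc-dKO-labelled library. Rimbp3 made up 56.5% of the summed FPKM of the 7 genes in wild type and 44.7% in the Epc-dKO-labelled library. It is annotated with a single exon of 5380 nt on chromosome 16, unlike Hook1, which has 22 exons in its longest transcript on chromosome 4.

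The relatives of Hook1 and Rimbp3 had lower levels than these genes, and some were not expressed. Hook2 had 25.6 FPKM in wild type and 24.7 FPKM in the Epc-dKO-labelled library, a log2 ratio of -0.05, and Hook3 was not expressed, with 0.538 and 0.286. Rimbp2, which encodes a synaptic relative of Rimbp3, had a mean below 1, and Bzrap1, the other relative, had 1.07 and 1.98. Partners of the Hook complex stayed within 2-fold: Aktip had 4.11 and 3.95, and Fam160a2 had 3.16 and 3.64. The genes nearest to Rimbp3 by the distance above were Acot7 and Morc2b, and those nearest to Hook1 were Zmiz2 and Ap3b1.

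Clip1, the microtubule plus-end gene, was the most level of the 7. It had 57.4 FPKM in wild type and 60.4 FPKM in the Epc-dKO-labelled library, a log2 ratio of 0.07. Among its paralogs Clip4 was the highest, with 117 and 134 (log2 ratio 0.19). Clip2 and Clip3 were low, at 2.36 and 0.896 and at 2.10 and 1.06, with log2 ratios of -0.83 and -0.59. Of the end-binding protein genes that recruit CLIP-170 to microtubules, Mapre1 was not expressed (0.971 and 0.821) and Mapre2 had 1.19 and 1.24. Mapre3 was the highest of them, at 11.8 in wild type and 21.6 in the Epc-dKO-labelled library, a log2 ratio of 0.83 that did not reach 2-fold. Dynein and dynactin genes, whose products CLIP-170 meets at microtubule ends, were abundant: Dync1h1 had 178 and 164, Dctn1 had 39.7 and 28.8, and Dctn2 had 55.5 and 54.3. Pafah1b1, for the dynein regulator LIS1, had 18.5 and 19.7, and Iqgap1, for a scaffold protein that binds CLIP-170, had 18.2 and 23.7. Lpcat3 and Scmh1 were nearest to Clip1.

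Meig1, which encodes a small protein that the manchette carries, stayed within 2-fold, with a ratio below 0. It had 38.2 FPKM in wild type and 29.0 FPKM in the Epc-dKO-labelled library, a log2 ratio of -0.38. Spag16, whose product is a cargo of this transport, had 34.3 and 31.2 (log2 ratio -0.13). Azi1, now named Cep131, another manchette gene, was nearest to Meig1 among the genes searched as above, and Spock2 was the next. Azi1 had 38.4 and 29.6, at a distance of 0.03. Spock2 was also at 0.03. Such nearness rests on 1 value per library, and shared regulation was not tested.

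Lrguk and Iqcg, genes of manchette and tail assembly, were in the lower part of the 7. Lrguk, which encodes a protein with leucine-rich repeats and a guanylate kinase-like domain, had 8.42 FPKM in wild type and 12.4 FPKM in the Epc-dKO-labelled library. Its log2 ratio of 0.51 was the largest of the 6 genes that stayed within 2-fold. Iqcg, for a subunit of the nexin-dynein regulatory complex of the axoneme, had 12.2 and 13.7 (0.16). Ttc9 and Eif4e were nearest to Lrguk, and Pde3b and Acaca to Iqcg. Calmodulin, which binds IQ motifs, is encoded by several genes, among them Calm2, with 55.8 and 37.7 (log2 ratio -0.55), and Calm3, with 64.1 and 62.1.

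In order of FPKM the wild-type library ran Rimbp3, Hook1, Clip1, Meig1, Iqcg, Lrguk, Spem1. The Epc-dKO-labelled library had the same first 4, followed by Spem1, Iqcg and Lrguk. The highest of the 7 stood 29.8-fold above the lowest in wild type and 14.2-fold in the Epc-dKO-labelled library. Neighbours in this order cannot be separated from replicate error, since each level rests on 1 library. In GENCODE M21, exons of Iqcg overlap Lrch3 and exons of Hook1 overlap 9530080O11Rik, each on the opposite strand. Both partners were lower than the member in both libraries (Lrch3 at 2.63 and 2.81, 9530080O11Rik at 1.51 and 1.94). The libraries were directional, but the strand setting of the counting is not given in the sources used here, so reads of such overlaps may not be told apart.

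The windows before Lrguk and Iqcg are shown as examples of windows with letters known from spermatid and ciliary promoters. That of Lrguk is chr6:34029198-34029497 on the plus strand, and that of Iqcg is chr16:33056137-33056436 on the minus strand, with the build and limits given above. Capitals mark TGACGTCA, the cyclic AMP response element bound by CREM, its core TGACG, the letters GTTGCNA from the X-box bound by RFX factors, and TATAAA, searched on both strands. The motifs were chosen after the sequences were seen.

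Lrguk: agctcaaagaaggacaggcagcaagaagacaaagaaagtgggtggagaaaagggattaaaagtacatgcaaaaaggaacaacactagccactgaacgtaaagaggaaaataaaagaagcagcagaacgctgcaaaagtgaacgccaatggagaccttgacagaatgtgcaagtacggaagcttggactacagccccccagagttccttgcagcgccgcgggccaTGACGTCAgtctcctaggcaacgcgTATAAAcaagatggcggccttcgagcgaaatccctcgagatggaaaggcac

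Iqcg: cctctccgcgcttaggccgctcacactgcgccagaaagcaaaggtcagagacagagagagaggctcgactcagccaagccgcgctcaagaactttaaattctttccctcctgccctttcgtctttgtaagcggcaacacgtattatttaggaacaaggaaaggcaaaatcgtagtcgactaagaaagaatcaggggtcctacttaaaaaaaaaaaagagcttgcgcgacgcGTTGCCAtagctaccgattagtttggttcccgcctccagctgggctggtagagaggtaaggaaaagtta

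Lrguk held TGACGTCA 26 bases before its start, and TATAAA overlapping the start. TGACGTCA, which contains TGACG on each strand, was in 1.79% of 32817 windows, and TATAAA in 13.6%. Iqcg held GTTGCNA 19 bases before its start, letters found in 10.4% of all windows. RefSeq windows were found for 6 of the 7 genes, 8 windows in all because Meig1 had more than 1 start. GTTGCNA was in windows of 2 genes, Iqcg and Meig1, and TGACG in those of 3, Lrguk, Meig1 and Clip1. TGACG was in 20.8% of all windows. This share and that of GTTGCNA are per window, whereas Meig1 had more than 1 window that could hold either. The GTTGCNA match of Meig1 lay after the start. The windows of Spem1 and Hook1 held none of the 4 motifs, which says only that these letters are not in these 300 bases. Crem had 14.6 FPKM in wild type and 24.5 FPKM in the Epc-dKO-labelled library, and Rfx2 had 184 and 195, both within 2-fold.

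The rest of the manchette and head shape genes showed no member past 2-fold on the FPKM + 1 scale. Of 46 such genes other than the 7, 44 were expressed, and 0 rose and 0 fell. Over all expressed genes 2.75% rose and 1.88% fell, shares at which such a list would hold few or none past 2-fold. The median log2 ratio of the 44 was 0.04 and their range -0.83 to 0.83. With a pseudocount of 0.1 or 0.5, or on the TPM scale, 1 of them fell, Clip2. Odf2, an outer dense fibre gene, was the most abundant, with 904 FPKM in wild type and 1014 FPKM in the Epc-dKO-labelled library. Psmc3, a proteasome ATPase gene, had 188 and 147, and Tekt1, for a microtubule-associated tektin, had 153 and 165. Katanin genes, whose products sever microtubules, included Katna1 (5.06 and 3.86, log2 ratio -0.32), Katnal1 (20.2 and 19.3) and Katnal2 (41.6 and 36.6). Genes of transport along the manchette included Ift74 (70.0 and 87.8), Ift88 (12.9 and 19.0) and Kif3b (52.1 and 59.3). The LINC complex genes that tie the manchette to the nucleus stayed within 2-fold with ratios of both signs, with Sun3 at 8.17 and 11.6 and Spag4, also known as Sun4, at 91.8 and 70.9.

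Genes of cytoplasm removal and of ubiquitin transfer in spermatids, the group closest to Spem1 in role, had 2 of 17 expressed members that rose and 0 that fell. Their median log2 ratio was 0.21. Over all expressed genes 2.75% rose and 1.88% fell. The members that rose were Spem2, described above, and Ubqlnl, a ubiquilin-like gene, which went from 2.65 to 30.2 FPKM (log2 ratio 3.09). Both were known to be higher in these data when the list was made. Ubqln1, the ubiquilin whose protein binds SPEM1, had 18.3 FPKM in wild type and a log2 ratio of 0.43, and Ranbp17, for another SPEM1 partner, had 11.4 and 15.4 FPKM (0.40). March10, a spermatid ubiquitin ligase gene, and Usp2, a deubiquitinase gene, were the most abundant, at 251 and 269 and at 156 and 136. Cul3 and Klhl10, which encode parts of a ubiquitin ligase of spermatids, had 78.5 and 123 (0.64) and 96.9 and 91.5 (-0.08). Ube2j1, an E2 enzyme gene needed for sperm maturation, had 13.6 FPKM in wild type and a log2 ratio of 0.60.

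Reported partners of the 7 gene products, 17 of 18 expressed, had 0 that rose and 0 that fell, with a median log2 ratio of -0.04. The range ran from Calm2 at -0.55 to Ubqln1 at 0.43. The 10 other genes of the nexin-dynein regulatory complex, to which Iqcg belongs, also had 0 past 2-fold, with a median of 0.20. With 2.75% of all expressed genes that rose and 1.88% that fell, lists of this size would hold few or none. Ccdc65 had 161 FPKM in wild type and 208 FPKM in the Epc-dKO-labelled library, and Tcte1 had 124 and 92.8 (log2 ratio -0.41).

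**Figure D4:**
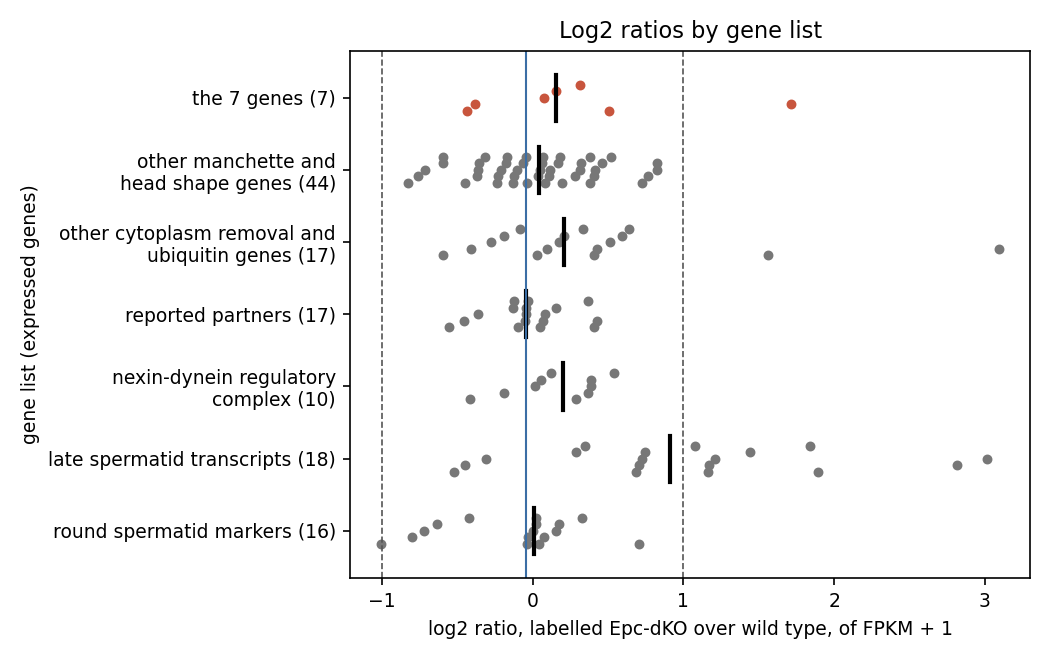
Log2 ratio (horizontal) of expressed genes in each list, with the number of genes in parentheses; points are genes, black bars are list medians, the vertical line is the median of all expressed genes (-0.05) and dashed lines mark 2-fold. The 44 other manchette and head shape genes all lie between the dashed lines, and 9 of the 18 late spermatid transcripts lie to the right of them.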

How the data were processed

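The deposited table gives FPKM per gene as computed by the authors, with 1 column per library and 23235 rows. A single row with library codes and no gene was left out. The submitters' processing notes name Cufflinks 2.2.1 and mm9. Which aligner, annotation and strand setting were used, and whether the libraries were scaled to each other, is not given in the sources used here. The depth is unknown, so no counting interval was computed.

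Log2 ratios used a pseudocount of 1 FPKM, a minimum of 1 for the mean of both libraries and a 2-fold rule. The code was run on simulated data with preset noise and planted changes well past 2-fold. That run does not measure how often the rule errs in these libraries. No test was run. The members and the 13 gene lists were chosen with earlier results of these data known. Named genes are the members, Epc1 and Epc2; in each list, those past 2-fold, the most abundant and the most changed; the partners and the Spem, Hook, Rimbp and Clip relatives; the genes nearest in level and those beside each member. Others named (Hils1, Acrv1, Spaca1, Spaca3, Izumo1, Crem, Mapre2, Katna1, Katnal1, Katnal2, Ift74, Ift88, Kif3b, Sun3, Spag4, Cul3, Klhl10, Ube2j1, Iqcf4, Iqcf5, Iqub and the 2 genes sharing the promoter stretch) were chosen after their values were seen. Some genes that this rule names are not reported here. List genes were matched by symbol or RefSeq synonym. Transcript lengths came from GENCODE M21 and gene order and promoters from RefSeq, both on GRCm38 and not mm9, so positions are printed for promoter windows only. Alternatives were other pseudocounts, minimums, scalings and folds. Python 3.11.15, NumPy 2.4.6, pandas 2.3.3 and Matplotlib 3.10.9 were used.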

Additional observations from a re-analysis of the deposited data

How the results depend on the processing

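With pseudocounts of 0.1 and 0.5, the TPM scale, a median ratio of 1, the upper quartile and the sum without the 100 highest genes, each of the 7 genes kept its sign and its side of 2-fold. A pseudocount cannot change a sign, and these scalings moved the median of all genes by less than 0.1. The log2 ratio of Spem1 ranged from 1.69 to 1.82 and that of Clip1 from 0.04 to 0.13. The median of the 7 genes ranged from 0.11, without Spem1, to 0.21. Under a 4-fold rule 0 of the 7 genes rose. Counts over all genes moved more: 433 higher and 652 lower with a pseudocount of 0.1, 364 lower with 0.5, 545 and 1054 on the TPM scale, 166 and 105 with a minimum of 5 (which leaves fewer genes), and 76 and 59 under the 4-fold rule. Gene lists were recounted, after the data were seen, with pseudocounts of 0.1 and 0.5 and on the TPM scale, in that order. Of the manchette list and of the relatives, 1 gene fell in each case, Clip2. The counts that fell were 2, 1 and 2 of 16 round spermatid markers, and 6 of 9, 4 of 9 and 7 of 12 spermatogonia markers. They were 3 of 10, 2 of 10 and 3 of 12 for spermatocytes and 1 of 4, 1 of 4 and 3 of 10 for peritubular markers. Over all genes the counts that fell also grew, to 652 of 10438, 364 of 10438 and 1054 of 15151. More genes pass the minimum on the TPM scale. Late spermatid transcripts kept a count of 9 that rose and cytoplasm removal genes a count of 2. No paired analysis was possible because there is a single library per genotype, and none could be left out for the same reason. Depth is unknown, which limits what low values can show.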

Other observations

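Genes with IQ motifs, the calmodulin-binding motif that gives Iqcg its name, are a mixed group and not 1 family. Iqcf3 rose, with 53.9 FPKM in wild type and 110 FPKM in the Epc-dKO-labelled library (log2 ratio 1.02), but did not pass 2-fold on the TPM scale. Its relative Iqcf1 had 4.83 and 10.5, a log2 ratio of 0.98 that missed 2-fold only with 1 added to each FPKM; with 0.1 or 0.5 added it passed. The other genes of this cluster family differed less: Iqcf4 had 6.65 and 8.26, and Iqcf5 had 9.84 and 9.70. Iqch had 58.3 and 77.8, and Iqub, an axonemal gene, had 30.8 and 46.2. Over the wider list of relatives of the 7 genes, 19 of 21 found were expressed. Of these, 13 had ratios above 0 and 6 below it, with a median log2 ratio of 0.19. Among them 2 rose, Iqcf3 and Spem2, beside 2.75% of all expressed genes. The Iqcf genes are close relatives and can share reads, so their separate values are uncertain.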
